A study of Homo sapiens with 8 samples.

Results

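The HOX cluster genes were taken as every gene of the count table whose symbol is HOX followed by a cluster letter A to D and a position number. The table held 39 of them among 26760 genes: 11 in the HOXA cluster, 10 in HOXB, 9 in HOXC and 9 in HOXD. Of the 39, 24 had enough counts to be tested (61.5%, against 46.0% of all genes), 7 had too few and 8 had no count in any library. The tested members were 9 HOXA, 7 HOXB and 8 HOXC genes, and no HOXD gene. The members were taken by name, although this group of genes was chosen with earlier results of these data known.

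RNA was sequenced in 8 libraries of LK2, an established human lung squamous carcinoma cell line, in 4 groups of 2. The constitutive system compared cells carrying a GFP vector (pLEX_306-GFP and pLEX_307-GFP) with cells carrying a DNp63 vector (pLEX_306-DNp63 and pLEX_307-DNp63). DNp63 is p63, a transcription factor of squamous epithelium, in the form without the N-terminal activation domain. The inducible system compared cells carrying pLIX_403-DNp63 after 6 days without doxycycline (uninduced) or with 2 µg/ml of it (induced). All 4 inducible libraries carried the DNp63 vector, so doxycycline and DNp63 changed together and cannot be told apart there. Nothing in the labels says that replicates were separate cultures, so p-values measure only the spread between these samples, which may be technical. Replicates 1 and 2 of the constitutive groups carried vectors of different numbers.

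HOX genes encode homeodomain transcription factors that give cells of the embryo their position along the body axis, and their order on the chromosome follows the order in which they act. Low position numbers belong to the anterior genes and high numbers to the posterior genes. Adult cells often keep a HOX pattern of their tissue of origin, held by Polycomb repressors and trithorax activators, and retinoic acid is a classic inducer of anterior members. HOXC13 is known for its part in hair and nail keratinocytes, where it acts on keratin genes.

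The homeodomain binds DNA through its recognition helix, and these coding sequences are so alike between members that the question arises whether reads can be told apart. Windows of 60 bases over that helix are given here for HOXC13, for the other members of position 13, and for HOXC9, a called gene of another position. They were read from the GENCODE v29 transcripts, 5′ to 3′, and capitals mark bases that differ from HOXC13.
HOXC13: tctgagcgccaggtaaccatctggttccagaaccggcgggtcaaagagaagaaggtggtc
HOXB13: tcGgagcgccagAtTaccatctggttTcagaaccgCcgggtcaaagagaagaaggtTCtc
HOXA13: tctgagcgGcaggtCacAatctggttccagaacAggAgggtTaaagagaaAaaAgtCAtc
HOXD13: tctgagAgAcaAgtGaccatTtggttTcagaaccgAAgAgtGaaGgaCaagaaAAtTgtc
HOXC9: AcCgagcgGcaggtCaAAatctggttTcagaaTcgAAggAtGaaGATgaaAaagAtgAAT
HOXB13 differed from HOXC13 at 7 of the 60 bases, HOXA13 at 10, HOXD13 at 15 and HOXC9 at 20. Over the whole transcripts, HOXC13, HOXC8, HOXC10 and HOXC11 shared none of their 38-base windows, the length of a read, with another member. HOXC4, HOXC5 and HOXC6 shared 16.6%, 12.9% and 13.7% of theirs with each other or a neighbour, because their transcripts use common exons, so counts of these 3 genes are uncertain as separate values.

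TP63 followed the labels. In CPM, the count per 1000000 of scaled library size, it stood at 0.739 and 1.91 in the GFP libraries, 1850.1 and 3816 in the DNp63 libraries, 12.7 and 14.8 before induction and 412 and 422 after it. Library totals ran from 2758158 to 10372248 counts, and HOX members made up 0.0499% to 0.0717% of them. A floor of 3 counts in a library equals 0.292 to 1.11 CPM. Of 7 tested squamous markers (10 listed), 5 were called as higher and 1, SOX2, as lower in the averaged comparison by edgeR. It was 6 and 1 under constitutive DNp63 and 3 and 0 under induced DNp63. These counts include TP63, the gene that the vectors carried. Of all genes, 3.26% were called as higher and 2.41% as lower in the averaged comparison. Under constitutive DNp63 it was 4.17% and 3.99%, and 0.236% were called as higher when induced. KRT6A, for one, stood at 2.22 and 5.93 CPM with GFP, 557 and 395 CPM under constitutive DNp63, 4.23 and 4.96 CPM uninduced and 24.0 and 26.2 CPM induced. The induced calls of KRT6A and TRIM29 were lost without any 1 of the inducible libraries. Such a fit leaves 1 library in a group, and fewer genes in all were then called. KRT14 had no count in any library and KRT5 was under 1 CPM outside the constitutive DNp63 libraries, where it was 398 and 18.8 CPM. SOX2 was at 68.3 CPM or more in every library.

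**Figure D1:**
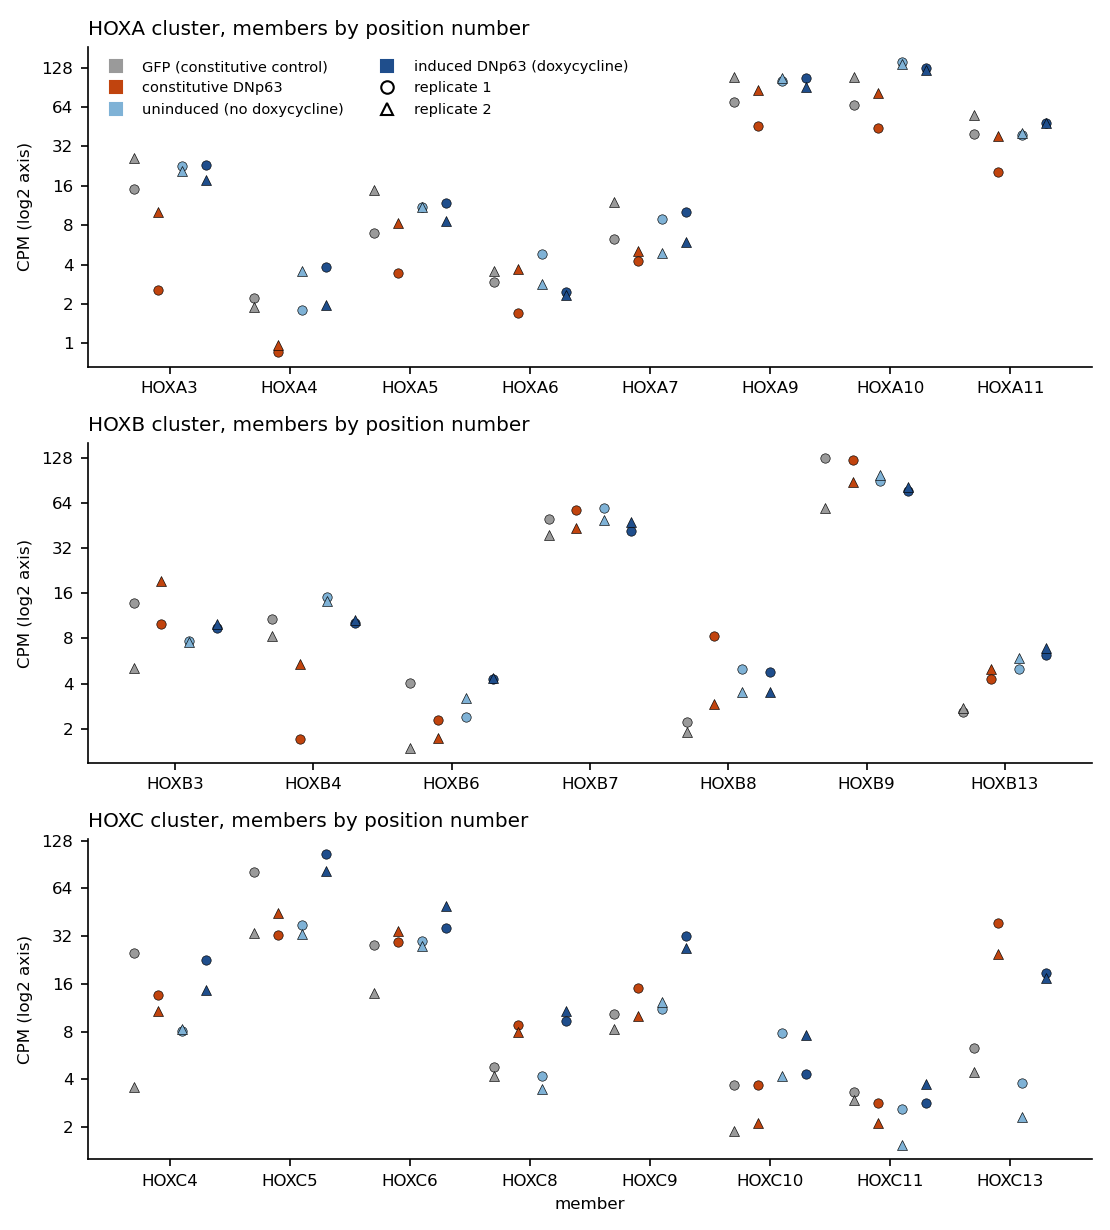
CPM of the tested HOX members described here in the 8 libraries, on a log2 axis, with a panel for each of HOXA, HOXB and HOXC and members in order of position; colours are groups, circles replicate 1 and triangles replicate 2. HOXA9, HOXA10, HOXB7, HOXB9 and HOXC5 are above 30 CPM in every library, and HOXC13 lies higher in the DNp63 and induced libraries than in their controls.

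LK2 cells held a HOX pattern carried by a few genes of 3 clusters. Per kilobase of exon, the highest members were HOXB9 at 36.0 CPM per kb over all 8 libraries, HOXB7 at 31.7, HOXA9 at 29.5, HOXA10 at 27.9, HOXC5 at 26.7 and HOXA11 at 17.9. The next, HOXC9 and HOXC6, were at 9.38 and 8.78 CPM per kb. The summed level of the HOXA cluster was 124 to 349 CPM in the 8 libraries, that of HOXB 118 to 212 CPM and that of HOXC 72.6 to 232 CPM. The HOXD cluster summed to between 0 and 1.85 CPM. The same 3 clusters were thus transcribed in every library. Differences between groups in these sums were not tested.

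HOXC13, a posterior gene of skin appendages, rose with DNp63 in both systems. GFP cells held 6.28 and 4.45 CPM, and cells with constitutive DNp63 held 38.9 and 24.6 CPM. Uninduced cells held 3.82 and 2.33 CPM, and induced cells 18.8 and 17.3 CPM. Every DNp63 library was above every control library. The log2 fold change averaged over both systems was 2.60 ± 0.26 (SE, n = 2 per group), with an adjusted p of 0.000267 by edgeR's quasi-likelihood test. It was 2.59 ± 0.37 under constitutive DNp63 (adjusted p = 0.002) and 2.60 ± 0.36 under induced DNp63 (adjusted p = 0.017).

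The systems differed in HOXC13 by 0.02 ± 0.52 on the log2 scale, with 95% limits of -1.13 to 1.16 and an adjusted p of 0.995. TP63 itself rose by 10.90 ± 0.57 on the same scale in the constitutive and 4.91 ± 0.32 in the inducible system (edgeR quasi-likelihood test, adjusted p = 3.87e-06 and 0.000239). The induced call of HOXC13 was lost without any 1 of the inducible libraries. Each of these fits leaves 1 library in a group and called fewer genes in all.

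HOXC13-AS, a long noncoding RNA on the opposite strand at the same place, went from no count to clear counts. It had 0 counts in each of the 4 control libraries, 50 and 48 in the DNp63 libraries, and 36 and 19 in the induced libraries. As levels these were 14.3 and 9.31 CPM under constitutive DNp63 and 4.45 and 3.74 CPM when induced. Taking 3 counts per control group as the floor, HOXC13-AS was at least 28.0-fold higher with constitutive DNp63 and at least 21.2-fold higher when induced. The bounds cover counting error only.

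By edgeR's quasi-likelihood test the adjusted p of HOXC13-AS was 0.000463 averaged over both systems, 0.00193 under constitutive and 0.0271 under induced DNp63. The induced call was lost without any 1 of the 4 inducible libraries, in fits that leave 1 library in a group and called fewer genes in all. Exons of the genes overlap by 172 bases in the GENCODE v29 annotation, which is 7.10% of HOXC13 and 12.2% of HOXC13-AS. The libraries were directional, but no source used here gives the strand setting of the counting, so reads of that stretch may count for the other gene.

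Across all 12303 genes, 5.67% were called in the averaged comparison at an adjusted p below 0.05, 3.26% as higher and 2.41% as lower. Of the 24 tested HOX members, 3 were called, all as higher and all in the HOXC cluster: HOXC13, HOXC9 and HOXC8. The median log2 fold change was 0.01 over the 24 members and -0.01 over all genes. Under constitutive DNp63, 1 of the 24 was called (HOXC13), against 8.16% of all genes (4.17% higher and 3.99% lower). Under induced DNp63 it was again 1, HOXC13, against 0.284% of all genes (0.236% higher). DESeq2 called 4, 3 and 3 members in these comparisons, against 7.19%, 9.92% and 0.894% of all genes. By edgeR an unadjusted p below 0.05 was reached by 2346 of the 12303 genes in the averaged comparison. It was reached by 2834 genes under constitutive and 743 under induced DNp63, 1120 between the controls and 1496 in the difference between systems.

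**Figure D2:**
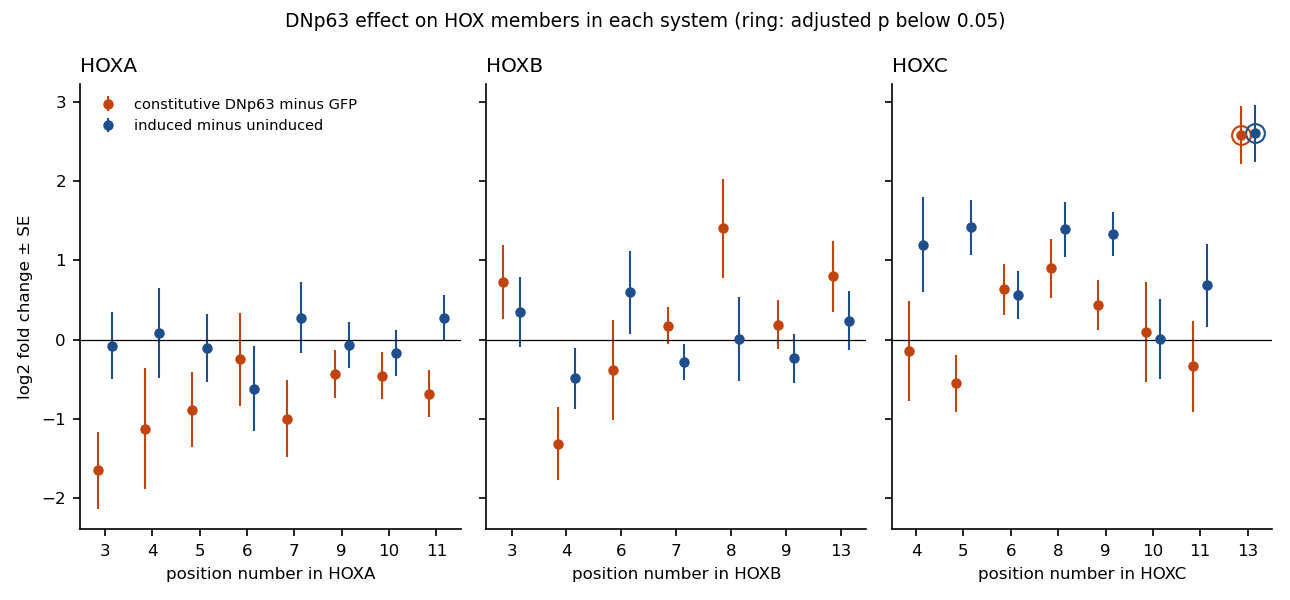
Log2 fold change of the tested HOX members described here by position number, for constitutive DNp63 minus GFP and for induced minus uninduced, in a panel for each cluster; bars are 1 SE on each side and a ring marks an adjusted p below 0.05. HOXC13 alone is ringed, at 2.59 and 2.60, all HOXA points shown for constitutive DNp63 lie below 0, and all 8 HOXC points for induction lie above 0.

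HOXC8, a central gene, stood at 4.80 and 4.24 CPM with GFP and 8.86 and 7.95 CPM under constitutive DNp63. It was at 4.23 and 3.50 CPM uninduced and 9.39 and 10.8 CPM induced. The DNp63 libraries lay above the controls in both systems without overlap. The averaged log2 fold change was 1.15 ± 0.26 (edgeR quasi-likelihood test, adjusted p = 0.0261), whereas the constitutive value of 0.90 ± 0.38 (adjusted p = 0.178) and the induced value of 1.39 ± 0.35 (0.225) did not pass alone. Leaving out GFP replicate 2 ended the averaged call, as did leaving out uninduced replicate 1 or 2, or induced replicate 1 or 2. Each of these fits leaves 1 library in a group and called fewer genes in all.

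HOXC9, the next gene along the cluster, had its highest levels in the induced cells. It stood at 10.3 and 8.26 CPM with GFP, 15.1 and 10.1 CPM under constitutive DNp63, 11.1 and 12.2 CPM uninduced and 32.1 and 26.8 CPM induced. The constitutive groups overlapped and the inducible groups did not. The averaged log2 fold change was 0.89 ± 0.21 (edgeR quasi-likelihood test, adjusted p = 0.0342), from 0.44 ± 0.31 in the constitutive system (0.457) and 1.33 ± 0.28 in the inducible one (0.133). The difference of 0.89 ± 0.42 between systems had 95% limits of -0.04 to 1.82 and did not pass (0.433). The averaged call was lost without any of 6 libraries: GFP replicate 2, DNp63 replicate 1, uninduced replicates 1 and 2, and induced replicates 1 and 2. Each of these fits leaves 1 library in a group. All but the fit without DNp63 replicate 1 called fewer genes in all.

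**Figure D3:**
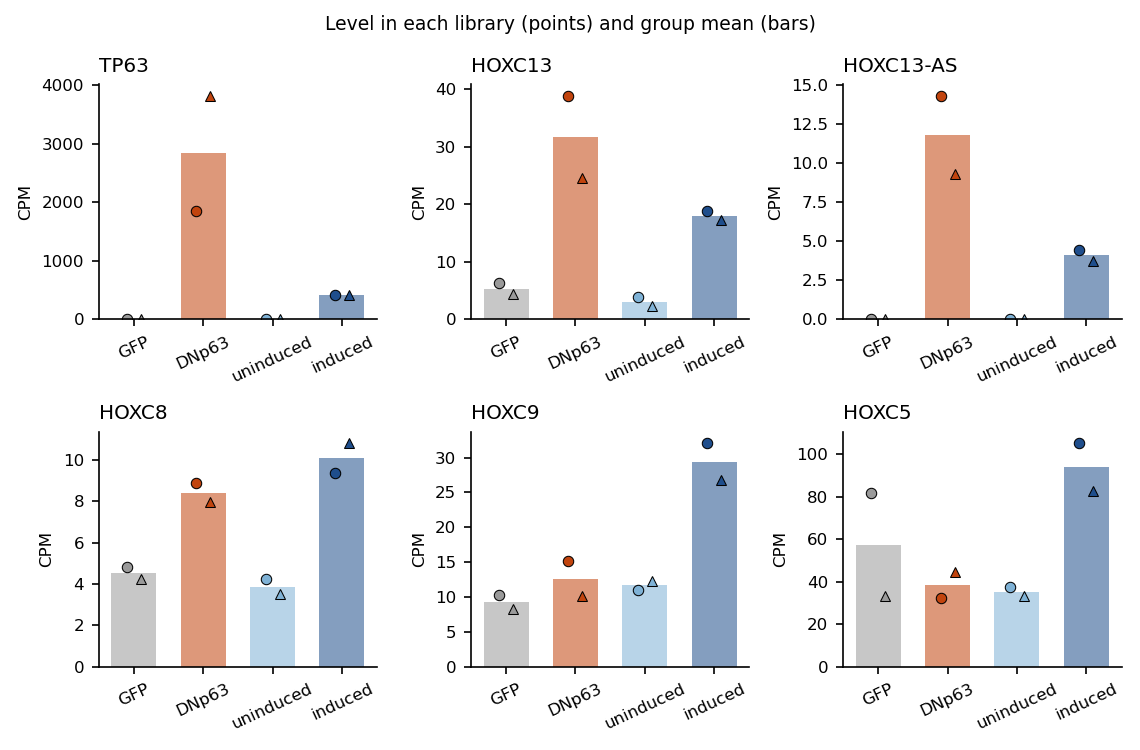
CPM of TP63, HOXC13, HOXC13-AS, HOXC8, HOXC9 and HOXC5 by group, on linear axes from 0 that differ between panels, with circles for replicate 1, triangles for replicate 2 and bars for the group mean. Induced libraries lie above uninduced ones in every panel, and the GFP libraries of HOXC5 are far apart, at 81.7 and 33.2 CPM.

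The central HOXC genes were also higher in the induced than in the uninduced libraries. HOXC5, the most abundant HOXC gene, stood at 37.4 and 33.2 CPM uninduced and 105 and 82.8 CPM induced, while GFP libraries held 81.7 and 33.2 CPM and constitutive DNp63 libraries 32.3 and 44.6 CPM. For HOXC5 the GFP libraries were far apart and the constitutive groups overlapped, with DNp63 replicate 1 just below the lower GFP library. Its log2 fold change was 1.42 ± 0.35 when induced (edgeR quasi-likelihood test, adjusted p = 0.225) and -0.55 ± 0.36 under constitutive DNp63 (0.413). The difference between systems was 1.97 ± 0.50, with 95% limits of 0.86 to 3.08 before adjustment and an adjusted p of 0.142. With DESeq2 HOXC5 was called when induced (adjusted p = 0.0145) and in the difference (0.0103), where 2.15% of all genes were. By edgeR the induced value was 1.42 without GFP replicate 1 and 1.43 without GFP replicate 2, and the difference was 2.51 without GFP replicate 2. Each of these fits leaves 1 library in the GFP group.

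HOXC4 shared this shape, at 8.05 and 8.26 CPM uninduced and 22.7 and 14.6 CPM induced, with 25.1 and 3.60 CPM in the GFP libraries and 13.7 and 10.9 CPM under constitutive DNp63. HOXC6 stood at 29.99 and 27.6 CPM uninduced and 36.1 and 49.2 CPM induced. It was at 28.1 and 14.0 CPM with GFP and 29.4 and 34.3 CPM under constitutive DNp63. Both groups with DNp63 were thus above their own controls in HOXC6, with log2 fold changes of 0.64 ± 0.32 and 0.56 ± 0.30 (edgeR quasi-likelihood test, adjusted p = 0.275 and 0.922). Without GFP replicate 1, the higher of the GFP libraries in HOXC4 and HOXC5, the constitutive log2 fold change was 1.76 for HOXC4 and 1.19 for HOXC6. That fit leaves 1 GFP library and called more genes in all, so no conclusion is drawn from it. HOXC4 was named after its values were seen.

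All 8 tested HOXC members had a positive induced log2 fold change, as had 49.8% of all genes, and their median was 1.27. In 7 of 8 the induced libraries lay above the uninduced ones without overlap, which held for 22.9% of all genes. HOXC10, with 7.85 and 4.18 CPM uninduced and 4.32 and 7.67 CPM induced, was the exception. The summed HOXC level was 105 and 92.8 CPM uninduced and 232 and 213 CPM induced, a ratio of means of 2.25. With GFP it was 163 and 72.6 CPM, and with constitutive DNp63 145 and 137 CPM, a ratio of 1.19 within the spread of the GFP libraries.

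The number of HOXC genes called depended on the spread the test used. A fit to the 4 inducible libraries alone, whose replicates were closer to each other, called 6.53% of all genes (3.65% as higher) and 6 of the 8 HOXC members, all as higher. These were HOXC13 at 2.63, HOXC5 at 1.43, HOXC8 at 1.40, HOXC9 at 1.33, HOXC4 at 1.21 and HOXC6 at 0.56 on the log2 scale, with adjusted p from 2.74e-09 (HOXC5) to 0.0455 (HOXC6) by edgeR's quasi-likelihood test. In the edgeR fit to all 8 libraries with the count filter HOXC13 alone passed. On all 8 libraries DESeq2 also called HOXC5 and HOXC9, and edgeR without the filter also called HOXC4, HOXC5 and HOXC9.

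HOXC4 and HOXC5 share a promoter in RefSeq, and the 250 bases before that start are shown because these genes were higher together in the induced cells. The window is chr12:54016638-54016887 of GRCh38.p14, plus strand, and capitals mark TAAT, the core letters bound by many homeodomains, read on both strands (TAAT or ATTA).
HOXC4 and HOXC5 promoter: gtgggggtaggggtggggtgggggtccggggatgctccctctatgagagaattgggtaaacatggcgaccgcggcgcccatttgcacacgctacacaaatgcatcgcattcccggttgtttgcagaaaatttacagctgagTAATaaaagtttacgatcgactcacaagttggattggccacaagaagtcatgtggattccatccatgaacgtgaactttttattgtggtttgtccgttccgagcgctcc
It held 1 match to the core and none to the half-site of the p53 family. Of 35116 RefSeq promoter windows of this length, 47.4% held the core and 5.57% the half-site. Promoters were matched for 20 of the 39 members, with 26 windows, of which 19 held the core and 2 the half-site. HOXC13, HOXC8 and HOXC9 were not matched. A match of letters is a description and not a bound site.

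HOXA members stood lower with constitutive DNp63 than with GFP, and close to their controls in the inducible system. None passed in the main edgeR fit, which had all libraries, the count filter and no replicate block. The summed HOXA level was 214 and 349 CPM with GFP and 124 and 240 CPM under constitutive DNp63, and 340 and 338 CPM uninduced against 336 and 304 CPM induced. The constitutive groups overlapped in that sum, since replicate 2 with DNp63 lay above replicate 1 with GFP, but within each vector number the DNp63 library was the lower one. All 9 tested HOXA members had a negative constitutive log2 fold change, with a median of -0.89, where 50.8% of all genes had a positive one and the median gene stood at 0.01. In 5 of the 9 the groups did not overlap, which held on the lower side for 22% of all genes. By edgeR's quasi-likelihood test in that main fit none of the 9 was called. An unadjusted p below 0.05 was reached by 3 of them, and by 2834 of all 12303 genes. DESeq2 called 2, HOXA3 being the one described here, and edgeR with the replicate block also called 2 as lower.

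**Figure D4:**
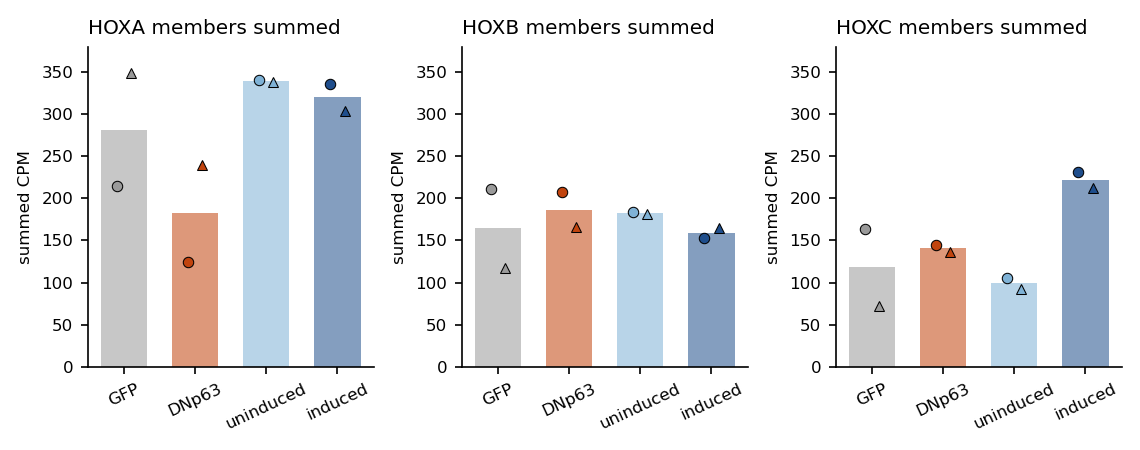
Summed CPM of the HOXA, HOXB and HOXC members by group, on a linear axis from 0, with circles for replicate 1, triangles for replicate 2 and bars for the group mean. HOXA runs from 124 to 349 CPM and HOXC from 72.6 to 232 CPM, and in all 3 clusters the GFP replicates are farther apart than the uninduced or the induced ones.

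HOXA3, which patterns the neck and upper spine, had the most negative constitutive value among the HOXA members described here. It stood at 15.1 and 26.0 CPM with GFP, 2.57 and 10.1 CPM under constitutive DNp63, 22.7 and 20.6 CPM uninduced and 23.1 and 17.7 CPM induced. Its groups overlapped in the inducible system and not in the constitutive one.

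For HOXA3 the call turned on the test, the count filter and how replicates were treated. The constitutive log2 fold change was -1.65 ± 0.49, with an adjusted p of 0.062 by edgeR's quasi-likelihood test with all libraries and the count filter. DESeq2 called HOXA3 as lower (-1.67 ± 0.49, adjusted p = 0.0105), where it called 9.92% of all genes. Without the count filter edgeR called it at -1.69 ± 0.36 (adjusted p = 6.74e-05), where 1791 genes were called in all. That fit also called HOXA3 averaged over both systems (-0.89, 0.00432) and in the difference between systems (1.60, 0.0276). With the vector number as a replicate block HOXA3 was at -1.77 ± 0.34 (adjusted p = 0.00466) and passed as lower, while 11.4% of all genes were called and 5.59% as lower. The constitutive value of HOXA3 was -1.96 without GFP replicate 1 and -3.02 without DNp63 replicate 2. Each of these fits leaves 1 library in a group and called more genes in all, so no conclusion is drawn from them. HOXA3 was singled out after its values were seen.

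Replicate 1 of the constitutive groups, with a pLEX_306 vector, was lower in HOXA than replicate 2, with a pLEX_307 vector, whichever insert the vector carried. This held for 8 of 9 tested HOXA members with GFP and for 9 of 9 with DNp63, with median differences of -0.71 and -0.91 on the log2 scale. In the inducible groups, where both replicates carried the same vector, it held for 4 of 9 and 2 of 9 members, with medians of 0.01 and 0.22. HOXC ran the other way, with 8 of 8 tested members higher in GFP replicate 1 than in replicate 2 and a median of 0.65. With DNp63 it was 6 of 8, all but HOXC5 and HOXC6, with a median of 0.35. The part of the vector in these differences was not tested.

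The posterior genes HOXA9, HOXA10 and HOXA11 carried most of the cluster's counts. HOXA10 stood at 65.8 and 108 CPM with GFP, 44.3 and 82.2 CPM under constitutive DNp63, 142 and 137 CPM uninduced and 126 and 122 CPM induced. HOXA9 stood at 69.5 and 109, 45.7 and 86.5, 100.2 and 107, and 106 and 91.1 CPM in the same groups. The constitutive log2 fold change was -0.46 ± 0.30 for HOXA10 and -0.43 ± 0.30 for HOXA9 (edgeR quasi-likelihood test, adjusted p = 0.41 and 0.444). The induced values were -0.17 ± 0.29 and -0.07 ± 0.29 (0.995 for both).

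HOXA11, a limb and uterus gene, was at 39.5 and 55.3 CPM with GFP and 20.3 and 38.4 CPM under constitutive DNp63, but at 39.0 and 40.6 CPM uninduced and 48.2 and 48.2 CPM induced. Its groups were apart in opposite directions, with log2 fold changes of -0.69 ± 0.30 and 0.27 ± 0.28 (edgeR quasi-likelihood test, adjusted p = 0.195 and 0.991). Without DNp63 replicate 2, in a fit that leaves 1 library in that group, the constitutive value was -1.24. The central genes HOXA4, HOXA5, HOXA6 and HOXA7 were at 14.8 CPM or less in every library, and their constitutive log2 fold changes ran from -1.13 for HOXA4 to -0.25 for HOXA6. HOXA7 and HOXA6 overlap the antisense gene HOXA-AS3 over 62.5% and 39.3% of their exonic bases, and HOXA11 overlaps HOXA11-AS over 31.1%.

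By edgeR's quasi-likelihood test with all libraries and the count filter, no HOXB member was called under constitutive or induced DNp63, where 8.16% and 0.284% of all genes were. Its summed level was 212 and 118 CPM with GFP, 207 and 166 CPM under constitutive DNp63, 184 and 182 CPM uninduced and 153 and 165 CPM induced. The medians of its 7 tested members were 0.19 and 0.01 on the log2 scale in the constitutive and inducible systems. An unadjusted p below 0.05 was reached by 2 and 0 members, against 2834 and 743 of all 12303 genes, and DESeq2 also called none.

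HOXB9, the member of highest level per length, stood at 128 and 58.9 CPM with GFP, 123 and 88.1 CPM under constitutive DNp63, 89.2 and 97.8 CPM uninduced and 76.8 and 82.0 CPM induced. Its log2 fold changes were 0.19 ± 0.31 and -0.24 ± 0.31 (edgeR quasi-likelihood test, adjusted p = 0.791 and 0.995). HOXB7 stood at 50.2 and 39.2 CPM, 57.4 and 43.3 CPM, 59.2 and 49.3 CPM, and 41.6 and 47.6 CPM in the same groups. Its values were 0.17 ± 0.24 and -0.28 ± 0.23 (adjusted p = 0.731 and 0.974). HOXB3 was at 13.7 and 5.08 CPM with GFP and 10.0 and 19.4 CPM with DNp63, and at 7.65 and 7.58 CPM uninduced and 9.39 and 10.0 CPM induced, with values of 0.73 ± 0.46 and 0.35 ± 0.45 (adjusted p = 0.398 and 0.995). For these 3 genes the 95% limits of every change take in 0.

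HOXB4, known for the self-renewal of blood stem cells, was lower with DNp63 in all 4 libraries than in the controls of the same system. It stood at 10.7 and 8.26 CPM with GFP and 1.71 and 5.43 CPM under constitutive DNp63, and at 15.1 and 14.1 CPM uninduced and 10.1 and 10.6 CPM induced. The constitutive log2 fold change was -1.32 ± 0.46 (edgeR quasi-likelihood test, adjusted p = 0.107). Without DNp63 replicate 2, in a fit that leaves 1 library in that group, it was -2.43. HOXB13, a prostate and hindgut gene, was higher in the DNp63 libraries than in their controls in both systems, at 2.59 and 2.75 CPM with GFP and 4.29 and 5.04 CPM with DNp63, then 5.03 and 5.93 CPM uninduced and 6.18 and 6.88 CPM induced. HOXB8 stood at 2.22 and 1.91 CPM with GFP and 8.29 and 2.91 CPM with DNp63. Its constitutive log2 fold change was 2.01 without DNp63 replicate 2, again with 1 library left in that group. HOXB6 stayed at or under 4.33 CPM in every library. With all libraries and the count filter, edgeR called none of HOXB4, HOXB13, HOXB8 and HOXB6 in the 5 comparisons. Without the filter it called HOXB4 as lower in the averaged comparison (-0.92, adjusted p = 0.0211) and under constitutive DNp63 (-1.35, 0.0254).

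HOXD was close to silent at this depth. HOXD1, HOXD3, HOXD4, HOXD8, HOXD9 and HOXD13 had no count in any library, which allows up to 1.11 CPM in the smallest library and 0.292 CPM in the largest. HOXD11 had 18 counts in all, HOXD10 had 9 and HOXD12 had 4. Of the 9 HOXD10 counts, 7 were in induced replicate 1 and 2 in DNp63 replicate 1. Because the counts are so few, and those of HOXD10 lie mostly in 1 library, no direction is drawn from them.

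In the other clusters HOXB1 and HOXC12 also had no count, and HOXB2 and HOXB5 had 2 and 6 counts in all. HOXA2, a hindbrain gene, had 30 counts: 3 over the GFP libraries, 1 with constitutive DNp63, 17 uninduced and 9 induced. HOXA13 had 11 counts over the uninduced libraries and 1 over the induced ones, a ratio per scaled library size of 0.105 with exact 95% limits of 0.00244 to 0.724 for counting error only. Of those 11 counts, 9 came from uninduced replicate 2.

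The control groups were also compared with each other. They carry different vectors, and the uninduced cells carry the DNp63 vector, with TP63 at 12.7 and 14.8 CPM against 0.739 and 1.91 CPM with GFP, so vector and low DNp63 cannot be told apart there. No member was called between uninduced and GFP cells by edgeR's quasi-likelihood test or DESeq2, while 0.00813% of all genes were called by edgeR. By edgeR 2 members had an unadjusted p below 0.05, as had 1120 of all 12303 genes. HOXA10 was higher in the uninduced cells by 0.68 ± 0.29 (edgeR adjusted p = 0.533) and HOXC13 stood at -0.82 ± 0.41 (0.601). In the difference between systems, 0.545% of all genes and no HOX member were called by edgeR. An unadjusted p below 0.05 was reached there by 3 members and by 1496 of all 12303 genes. DESeq2 called HOXC5 there.

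By position, the anterior members (1 to 3) held 3 tested genes, the central members (4 to 8) 12 and the posterior members (9 to 13) 9. Their median constitutive log2 fold changes were -1.65, -0.32 and 0.09, against 0.01 for all genes. The induced medians were -0.08, 0.18 and 0.24, against -0.00 for all genes.

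Genes known to act on HOX transcription were read from lists. Of 13 tested retinoic acid genes (17 listed), 5 were called as higher and 2 as lower in the averaged comparison, where 3.26% and 2.41% of all genes were. CRABP2, which carries retinoic acid to its receptors, stood at 25.5 and 18.6 CPM with GFP, 77.4 and 145 CPM under constitutive DNp63, 56.1 and 57.7 CPM uninduced and 98.9 and 99.3 CPM induced. Its averaged log2 fold change was 1.58 ± 0.20 (edgeR quasi-likelihood test, adjusted p = 0.00124). STRA6, the receptor for retinol uptake, rose by 2.84 ± 0.46 (0.00381). ALDH1A1, which makes retinoic acid, fell by 1.65 ± 0.15 on the log2 scale (0.000205), and RDH10, which makes its precursor, fell by 1.69 ± 0.29 (0.00722), the latter not without induced replicate 1 (0.0749).

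ALDH1A3, another enzyme of retinoic acid synthesis, was not called. It stood at 34.7 and 32.0 CPM with GFP, 36.0 and 34.7 CPM under constitutive DNp63, 16.9 and 18.6 CPM uninduced and 28.8 and 36.6 CPM induced, and was named after its values were seen. RARB, the receptor that retinoic acid itself induces, had an averaged log2 fold change of 0.72 ± 0.16, CYP26B1, which degrades retinoic acid, one of 1.89 ± 0.49, and DHRS3, which returns retinal to retinol, one of 0.55 ± 0.13. RARB and DHRS3 lost their calls without GFP replicate 2 or any 1 inducible library, and CYP26B1 without any library but DNp63 replicate 1. Each of these fits leaves 1 library in a group. Fewer genes in all were called without GFP replicate 2 or an inducible library, so a lost call does not set these genes apart. Under constitutive DNp63, CRABP2 and STRA6 were called as higher and ALDH1A1 and RDH10 as lower, where 4.17% and 3.99% of all genes were. With the replicate block 4 retinoic acid genes were higher and 2 lower, where 11.4% of all genes were called. Under induced DNp63 ALDH1A1 alone was called, at -1.49 ± 0.22 (edgeR adjusted p = 0.0238), where 0.284% of all genes were. This call was lost without any 1 of the inducible libraries.

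Chromatin regulators of HOX genes were read beside the share of all genes called. In the averaged comparison it was 5.67% by edgeR and 7.19% by DESeq2, and under constitutive DNp63 edgeR called 3.99% as lower. With lists this short, no call or 1 call is near those shares. An unadjusted p below 0.05 was reached by 2346 of all 12303 genes in the averaged comparison. None of 17 Polycomb genes was called in the averaged comparison by edgeR, with 1 at an unadjusted p below 0.05, and DESeq2 called CBX2, at -0.47 ± 0.13 by edgeR (adjusted p = 0.0704). PHC1 was at 0.33 ± 0.15 (0.264). None of 10 trithorax and histone demethylase genes was called in the averaged comparison by edgeR, with 1 at an unadjusted p below 0.05, and DESeq2 called 1, DOT1L. DOT1L, a histone methyltransferase, was lower under constitutive DNp63 by edgeR's quasi-likelihood test, at -0.75 ± 0.18 (0.0325), a call lost without any of GFP replicate 2, DNp63 replicate 1 or the 4 inducible libraries (0.0533 to 0.122) or in a fit to the constitutive libraries alone (0.232).

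Of 6 tested HOX cofactors (9 listed), the PBX, MEIS and PKNOX proteins that bind DNA beside HOX factors, none was called by edgeR or DESeq2. In the averaged comparison these called 5.67% and 7.19% of all genes, so no call among 6 is near the share. There 1 cofactor had an unadjusted p below 0.05. PKNOX1 stood at -0.39 ± 0.17 and MEIS2 at -0.60 ± 0.44 (edgeR adjusted p = 0.24 and 0.511). Among 5 tested other regulators (9 listed), ZNF703 had an averaged log2 fold change of 0.57 ± 0.14 (0.0418). The call was lost without any library but GFP replicate 1 and DNp63 replicate 2 (0.0504 to 0.212).

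Of 23 listed antisense and long noncoding RNAs of the clusters, 5 were tested and HOXC13-AS alone was called. Of all genes, edgeR called 5.67% in the averaged comparison, 8.16% under constitutive and 0.284% under induced DNp63. In the HOXA cluster, HOTAIRM1 stood at 2.96 and 5.29 CPM with GFP and 0.571 and 1.55 CPM under constitutive DNp63, against 3.82 and 6.42 CPM uninduced and 4.69 and 5.51 CPM induced. HOTAIRM1, HOXA-AS3 and HOXA11-AS had constitutive log2 fold changes of -1.90, -1.69 and -0.91 and did not overlap between groups, which held on the lower side for 22% of all genes, while HOXA10-AS was at 0.31. The first 3 were thus lower beside the HOXA genes they overlap, without passing the test (edgeR adjusted p = 0.0932, 0.198 and 0.291). All 6 listed microRNA genes of the clusters had no count in these polyA-selected libraries.

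Genes beside the clusters were not called in the averaged comparison by edgeR (0 of 11 tested, 18 listed, with 2 at an unadjusted p below 0.05), while DESeq2 called SKAP2. Of all genes, 5.67% and 7.19% were called there by edgeR and DESeq2. Under constitutive DNp63, edgeR called SKAP2 and HIBADH, which lie on either side of HOXA, as lower. These were 2 of the 11 tested, where 3.99% of all genes were called as lower. SKAP2 stood at 21.8 and 21.6 CPM with GFP, 5.14 and 10.3 CPM with DNp63, 21.1 and 22.7 CPM uninduced and 21.7 and 17.7 CPM induced. HIBADH stood at 25.5 and 32.6 CPM, 15.7 and 14.2 CPM, 32.6 and 40.2 CPM, and 43.0 and 38.6 CPM in the same groups. The constitutive log2 fold changes were -1.45 ± 0.33 for SKAP2 (edgeR adjusted p = 0.023) and -0.97 ± 0.25 for HIBADH (0.0396). The SKAP2 call was lost without any library but GFP replicate 1 and DNp63 replicate 2 (0.0506 to 0.0895), and that of HIBADH without any library but GFP replicate 1 (0.0507 to 0.192). Neither passed in a fit to the constitutive libraries alone (0.143 and 0.214). With the replicate block both remained called and CALCOCO2, beside HOXB, was called as higher.

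Homeobox and T-box genes outside the HOX clusters were listed for comparison, 19 tested of 32. Of all genes, edgeR called 5.67% in the averaged comparison and 8.16% under constitutive DNp63. DLX3, a homeobox gene of hair and epidermis, was called as higher in the averaged comparison at 2.88 ± 0.42 (edgeR quasi-likelihood test, adjusted p = 0.00312), with 11.8 and 7.62 CPM with GFP and 239 and 50.6 CPM under constitutive DNp63. TBX2 was called as lower at -1.60 ± 0.15 (0.00023) and TBX3 at -0.89 ± 0.15 (0.00635), the latter not without induced replicate 1 (0.0572) or 2 (0.0578). Under constitutive DNp63 the same 3 genes were called, DLX3 not without GFP replicate 2 (0.0673), and so was TBX1, which had 34 and 12 counts with DNp63, none with GFP and at most 4 in any inducible library (edgeR adjusted p = 0.0464, lost without any library but DNp63 replicate 2, at 0.0512 to 0.218, with DESeq2, at 0.176, and in a fit to the constitutive libraries alone, at 0.0605). TBX1 with 46 counts against 0 is a call of few counts. Under induced DNp63 none of the 19 was called by edgeR or DESeq2, where 0.284% and 0.894% of all genes were. By edgeR 3 of the 19 had an unadjusted p below 0.05 there.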

How the data were processed

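RNA of 8 LK2 libraries was measured as raw counts per gene, which the authors deposited with a column for each library. The tools named, per the submitters' processing notes, are TopHat2 2.1, SAMtools, HTSeq and DESeq2, and the build is hg19; their settings, the annotation version and the strand setting are not given there. Deposited counts were whole numbers.

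Genes were kept by filterByExpr on the 4 groups (minimum count 10), scaled by the TMM method and tested with edgeR 4.0.16 under R 4.3.3 (quasi-likelihood, legacy estimates, two-sided). The model had 4 group means and a spread shared by all 8 libraries (4 residual degrees of freedom), with Benjamini-Hochberg adjustment over 12303 genes and calls at an adjusted p below 0.05. Standard errors and 95% limits are Wald values from the fitted weights; they replaced values derived from the F statistic, which were unstable where the fold change was near 0, and the tests did not change. Log2 values for comparing replicates use a prior count of 2. The 5 contrasts were each system's DNp63 effect, their average, their difference (induced minus constitutive), and uninduced minus GFP. Groups with few counts are given as counts, ratios or bounds. On simulated data for the averaged contrast over 12303 genes, 60.2% of changes of 2-fold and 92.4% of changes of 4-fold were recovered, with 6.25% false calls.

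The members and lists were chosen with earlier results of these data known. The naming rule gave full statistics to members called in any contrast and to the 3 tested members of highest mean CPM in each cluster, and named list members that were called, up to 4 per contrast, or otherwise the lowest p values. HOXA3, HOXB4 and other members with statistics outside this rule were named after their values were seen. Replicates differed beyond sampling noise, with a chi-square per degree of freedom of 18.0 in GFP, 25.6 in DNp63, 3.91 in uninduced and 5.38 in induced cells.

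The labels give same-numbered constitutive libraries a shared vector number, which makes them pairs. The main model did not use this pairing, so the difference between vector numbers is part of its spread. The replicate block used it, and 1400 genes were then called under constitutive DNp63, against 1004 without it. The difference between replicates 1 and 2 correlated across 12303 genes at 0.22 between the constitutive groups and at -0.03 between the inducible groups. Alternatives were DESeq2 1.42.0, other scaling, filters and estimates, the replicate block, each system alone, and leaving out each library. Lengths and overlaps come from GENCODE v29 on another genome build, so no coordinates of the counted genes are given. Some results are counted in the totals but not reported here.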

Additional observations from a re-analysis of the deposited data

Results flagged for a closer look

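HOXA11 and HOXC11 were set apart because all libraries of a system moved opposite ways: with constitutive DNp63 both libraries lay below GFP, and when induced both lay above the uninduced libraries. For HOXA11 the induced minus the constitutive log2 fold change was 0.96, with 95% limits of 0.05 to 1.86 before adjustment and an edgeR adjusted p of 0.379. Without DNp63 replicate 2, in a fit that leaves 1 library in that group, the HOXA11 difference was 1.51. For HOXC11 it was 1.03, with limits of -0.69 to 2.74 and an edgeR adjusted p of 0.664. HOXC11 stood at 3.33 and 2.96 CPM with GFP, 2.86 and 2.13 CPM with DNp63, 2.62 and 1.56 CPM uninduced and 2.84 and 3.74 CPM induced, from 9 to 23 counts a library. With all 8 libraries neither difference passed the test across all genes.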

How the results depend on the processing

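No direction reversed for any called HOX gene or list gene. HOXC13 kept its averaged and constitutive calls under every alternative run. Without any filter 6 HOX members and 1372 genes in all were called in the averaged comparison, 4 and 1791 under constitutive DNp63, 4 and 242 when induced, 2 and 558 in the difference, and 245 genes between controls. A minimum count of 30 left 0 genes called between controls. DESeq2 called 4 HOX members in the averaged comparison, 3 under constitutive DNp63, 3 of 110 genes when induced, 1 of 265 in the difference, and 57 genes between controls. Each system alone gave 282 genes under constitutive DNp63, and 803 genes with 6 HOX members when induced.

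With the replicate block, 5 HOX members were called in the averaged comparison and 3 under constitutive DNp63, with HOXA3 among those added in both, and 2 of 87 genes when induced (HOXC13 and HOXC9, adjusted p = 0.0483), 270 genes in the difference and 65 between controls. The inducible libraries share only a number, so for them the block has no basis in the labels. Among the HOX members described here it changed no other call.

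Leaving out each library in turn gave 1 to 7 HOX members and 224 to 1112 genes in the averaged comparison, 1 to 6 and 451 to 1398 under constitutive DNp63, 0 to 2 and 2 to 100 when induced, 0 to 2 and 0 to 449 in the difference, and 0 and 0 to 45 between controls. The fewest genes were called without induced replicate 1 in the averaged comparison, without GFP replicate 2 under constitutive DNp63 and without uninduced replicate 2 when induced. A lone library left in a group is assumed to vary like the other groups. The cause of these shifts was not tested. Depth limits members under about 1 CPM, which HOXD, HOXA2 and HOXA13 are.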

Other observations

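Some transcripts of the HOX clusters lie outside the comparisons because they had too few counts to be tested. HOTAIR, the long noncoding RNA of the HOXC cluster, had 0 counts in the GFP libraries, 0 and 4 with constitutive DNp63, 0 and 2 uninduced and 2 and 2 induced. HAGLR, beside HOXD, had 5 and 0 counts with GFP, 16 and 7 with constitutive DNp63, 1 and 10 uninduced and 10 and 5 induced, although 6 of the 9 HOXD genes had none. HOXC-AS1 had 0 counts in the GFP libraries, 0 and 1 with constitutive DNp63, 2 and 8 uninduced and 10 and 6 induced. The joined gene HOXA10-HOXA9 had at most 14 counts in a library, against at least 155 for HOXA10.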
